A study of Mus musculus with 6 samples.

Results

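The 9 genes described here act on lysophospholipids, the phospholipids with a single remaining acyl chain. They were taken by symbol from the table of 54532 genes, and all 9 were found: the acyltransferase genes *Lpcat1*, *Lpcat2*, *Lpcat3*, *Lpcat4*, *Mboat1*, *Mboat2*, *Mboat7* and *Lpgat1*, and *Mfsd2a*, which encodes an importer of lysophosphatidylcholine (LPC). Their RNA was measured in whole livers of 3 mice with a conditional deletion of *Spns1* (g*Spns1*-cKO, here cKO) and 3 control mice on a C57BL/6 background, 1 poly(A)-selected library per mouse. The cKO mice carried *Spns1* alleles with loxP sites around exon 3 and a tamoxifen-dependent Cre recombinase (Rosa26Cre-ER T2) expressed from a locus active in the whole body, so that cells of every type could lose the gene. Per the study's methods they received tamoxifen at 50 mg/kg on postnatal days 11, 13 and 15, and the controls were floxed littermates without Cre, whereas the labels of the control samples read wild type. Whether the controls also received tamoxifen, the sex of the 6 mice and their age at collection are not given in the sources used here. *Spns1*, which encodes the lysosomal exporter of lysolipids that the study deleted, was at 34.6 to 50.7 CPM in the control livers and 17.7 to 30.6 CPM in cKO mice (CPM, counts relative to the library total, scaled between libraries by the TMM factors of edgeR). It fell by 0.87 on the log2 scale (standard error 0.25, adjusted p = 0.0300, from the quasi-likelihood fit of edgeR adjusted by Benjamini-Hochberg over all genes), and it missed the threshold without control replicate 2, cKO replicate 1 or cKO replicate 3 (adjusted p between 0.0785 and 0.0910). The call was also lost under scaling by library size only (-0.43, adjusted p = 0.213) and by upper-quartile factors (-0.74, adjusted p = 0.0635). These counts cover the whole gene and do not measure the loss of exon 3 alone. By western blot, the study reported a reduced SPNS1 protein band in livers of cKO mice.

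Lysophospholipids arise when a phospholipase removes 1 acyl chain from a membrane phospholipid, and they are returned to the phospholipid pool by acyltransferases that use acyl-CoA, a turnover known as the Lands cycle. The enzymes belong to 2 protein families. LPCAT1, LPCAT2, LPCAT4 and LPGAT1 are related to the acylglycerolphosphate acyltransferases, whereas LPCAT3, MBOAT1, MBOAT2 and MBOAT7 are membrane-bound O-acyltransferases. LPCAT3 is the main LPC acyltransferase of hepatocytes and places polyunsaturated chains, and its gene is a target of the oxysterol receptor LXR. MFSD2A imports LPC from plasma together with sodium, and its gene is induced in the fasted liver through PPARα. The question put to the data was whether these genes differ in livers that cannot release lysolipids from lysosomes normally.

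The libraries held between 30350002 and 35295611 counts. TMM factors ran from 0.834 to 0.873 for the controls and from 1.16 to 1.18 for the cKO mice, so levels compared between livers depend on the scaling. Under scaling by library size only, the median log2 change over all genes moved from 0.014 to 0.46, and under upper-quartile scaling to 0.14. The 3286 genes called higher and 3166 called lower became 7289 and 970 by library size only, and 4111 and 2240 by upper-quartile scaling. Where this ends or turns the call of 1 of the 9 genes, it is given beside its value. The 10 hepatocyte markers summed to between 64402 and 122902 CPM in the 6 livers, and none was at 0 in a group.

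The region around the start site is shown for the gene that rose most (*Lpcat2*), for the main hepatic enzyme (*Lpcat3*) and for the gene that fell most (*Mfsd2a*). Each is the RefSeq promoter on GRCm38.p6, from 250 bases before to 50 bases after the start, 5′ to 3′ on the strand of the gene. A RefSeq promoter was found for each of the 9 genes. Capitals mark matches on either strand to 4 short motifs. These were CACGTG (the E-box within the lysosomal CLEAR element), the promoter box CCAAT, the TATA box (searched as TATAAA) and the half-site of nuclear receptors such as PPARα and LXR (searched as AGGTCA). No match overlapped another in these windows.
Lpcat2, chr8:92855083-92855382, plus strand: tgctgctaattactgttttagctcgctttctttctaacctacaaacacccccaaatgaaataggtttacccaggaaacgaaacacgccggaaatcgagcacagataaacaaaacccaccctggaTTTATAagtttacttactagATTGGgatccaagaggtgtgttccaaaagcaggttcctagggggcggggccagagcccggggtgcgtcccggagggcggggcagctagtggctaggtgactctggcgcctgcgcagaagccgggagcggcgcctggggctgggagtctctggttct
Lpcat3, chr6:124662854-124663153, plus strand: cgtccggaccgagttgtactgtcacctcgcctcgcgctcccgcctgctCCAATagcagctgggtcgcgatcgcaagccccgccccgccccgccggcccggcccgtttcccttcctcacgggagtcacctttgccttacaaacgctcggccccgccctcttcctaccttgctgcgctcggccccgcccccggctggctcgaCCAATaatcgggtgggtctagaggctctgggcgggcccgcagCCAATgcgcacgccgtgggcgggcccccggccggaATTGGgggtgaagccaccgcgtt
Mfsd2a, chr4:122961139-122961438, minus strand: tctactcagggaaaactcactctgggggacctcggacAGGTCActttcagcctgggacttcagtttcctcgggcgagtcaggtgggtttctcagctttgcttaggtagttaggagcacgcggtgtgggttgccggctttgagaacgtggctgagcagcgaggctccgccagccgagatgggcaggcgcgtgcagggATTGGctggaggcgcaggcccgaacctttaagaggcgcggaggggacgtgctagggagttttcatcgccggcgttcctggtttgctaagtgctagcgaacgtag
AGGTCA was found in the window of *Mfsd2a* and in no other of the 9, and 16.0% of 27025 promoters, 1 per symbol, hold it. TATAAA was found in the window of *Lpcat2* alone, against 14.2% of all promoters. CCAAT was found in 5 of the 9 windows, those of *Lpcat2*, *Lpcat3*, *Mboat1*, *Mboat2* and *Mfsd2a*, against 37.9%, and *Lpcat3* holds 4 matches. CACGTG was found in 0 of the 9 windows, against 7.24% of all promoters. A match is a string of letters in a window and says nothing of a factor binding there.

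Of the 9 genes, 7 had enough counts to be tested, and each of the 7 passed the threshold of 0.05 on the adjusted p, 3 of them higher and 4 lower. Of the 15449 genes tested in all, 41.8% passed in either direction, 21.3% higher and 20.5% lower, so a call by itself is frequent in this comparison. In each of the 7 the groups did not overlap, which was also true of 54.1% of all genes tested. The 3 genes that rose were *Lpcat1*, *Lpcat2* and *Lpcat4*, the low-expressed LPC acyltransferases of the acylglycerolphosphate acyltransferase family. The 4 that fell were *Lpcat3*, *Mboat7*, *Lpgat1* and *Mfsd2a*, the 4 most abundant of the 9 in control livers. The adjusted p-values of single genes below come from the same edgeR fit over all genes.

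**Figure D1:**
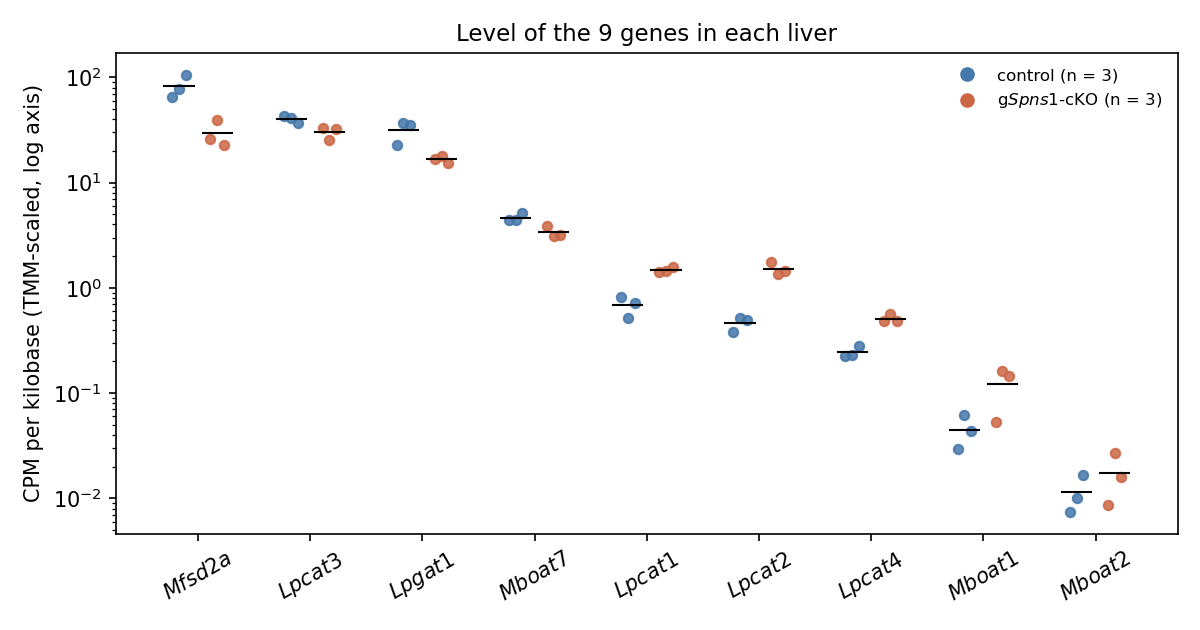
Level of the 9 genes per length in each liver (CPM per kilobase of gene length, TMM-scaled, log axis); each point is 1 mouse, bars are the means of 3 mice, and genes are ordered by their control mean. The 4 genes at the left are lower in the cKO livers and *Lpcat1*, *Lpcat2* and *Lpcat4* are higher, while *Mboat1* and *Mboat2* overlap between the groups and were not tested.

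*Lpcat2* (ENSMUSG00000033192, chr8:92855339-92919279, plus strand) encodes an acyltransferase of inflammatory cells that acts on LPC and also makes platelet-activating factor. The controls had 36, 54 and 42 counts and the cKO livers 215, 178 and 193, or 1.56 ± 0.250 and 5.17 ± 0.707 CPM (SD, n = 3 mice each). All cKO livers stood above all control livers. *Lpcat2* was 3.30-fold higher, a log2 difference of 1.72 (standard error 0.23, adjusted p = 0.000284). An antisense gene, *Gm45472*, shares 287 exonic bases with it on the opposite strand but had only 5 counts over the 6 libraries.

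*Lpcat1* (ENSMUSG00000021608, chr13:73467197-73516422, plus strand) encodes the enzyme that makes saturated phosphatidylcholine for lung surfactant. Counts were 106, 73 and 84 in controls and 237, 259 and 286 in cKO mice. These were 3.15 ± 0.714 and 6.86 ± 0.359 CPM, with no overlap. This rise was 2.18-fold, or 1.13 on the log2 scale (standard error 0.21, adjusted p = 0.00183). The cKO livers lay closer together than the control livers.

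*Lpcat4* (ENSMUSG00000027134, chr2:112239468-112247111, plus strand), whose product acylates LPC and lysophosphatidylethanolamine, was the least abundant gene tested. Its counts were 18, 20 and 20 in controls against 49, 61 and 54 in cKO mice, or 0.693 ± 0.0841 and 1.44 ± 0.128 CPM. It rose by 1.06 on the log2 scale (standard error 0.32, adjusted p = 0.0219). The groups stood apart, but the call rested on few reads and missed the threshold without control replicate 1, control replicate 2, cKO replicate 2 or cKO replicate 3 (adjusted p between 0.0539 and 0.0723). *Lpcat1* and *Lpcat2* passed in each of 14 alternative fits.

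*Mfsd2a* (ENSMUSG00000028655, chr4:122946850-122961188, minus strand), the LPC importer, fell most. Its levels were 147, 175 and 237 CPM in controls against 58.5, 89.2 and 51.5 CPM in cKO mice. The groups did not overlap, and both varied widely between mice. *Mfsd2a* was 2.81-fold lower, or -1.49 on the log2 scale (standard error 0.25, adjusted p = 0.00267), and 3.07% of all tested genes had a lower value. It passed in each of 14 alternative fits, with a log2 fold change of -1.04 under scaling by library size only and -1.76 to -1.29 as single mice were omitted.

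*Lpgat1* (ENSMUSG00000026623, chr1:191717834-191784255, plus strand) was named for the acylation of lysophosphatidylglycerol, and its product also acts on other lysophospholipids. Its levels were 172, 283 and 269 CPM in controls against 127, 137 and 118 CPM in cKO mice. Control replicate 1 stood well below the other control livers, though above every cKO liver. *Lpgat1* was thus 1.90-fold lower (log2 fold change -0.92, standard error 0.18, adjusted p = 0.00279). It passed in each of 14 alternative fits, with -0.48 (adjusted p = 0.0422) under scaling by library size only.

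*Lpcat3* (ENSMUSG00000004270, chr6:124663027-124704418, plus strand) changed least. Its levels were 139, 136 and 119 CPM in controls against 107, 83.2 and 105 CPM in cKO mice, so that cKO replicate 2 was lowest. *Lpcat3* was 1.34-fold lower (log2 fold change -0.42, standard error 0.13, adjusted p = 0.0244). Under scaling by library size only it was 0.02 (adjusted p = 0.886), and under upper-quartile scaling -0.29 (adjusted p = 0.0910). It also missed the threshold without control replicate 1, control replicate 2 or cKO replicate 2 (adjusted p between 0.0652 and 0.0818). *Emg1* shares 334 exonic bases with it on the opposite strand and had 9086 counts over the 6 libraries against 22296 for *Lpcat3*. Whether counting used strand is not given in the sources used here.

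*Mboat7* (ENSMUSG00000035596, chr7:3677789-3693523, minus strand) encodes the enzyme that places arachidonate on lysophosphatidylinositol. Its levels were 36.4, 36.6 and 43.1 CPM in controls against 32.5, 25.8 and 26.7 CPM in cKO mice. All 3 cKO livers lay below the controls, a log2 difference of -0.45 (standard error 0.12, adjusted p = 0.0150), close to that of *Lpcat3*. Under scaling by library size only it was -0.0043 (adjusted p = 0.979), and it missed the threshold without control replicate 3, cKO replicate 2 or cKO replicate 3 (adjusted p up to 0.0663). It shares 277 exonic bases with *Tsen34*, which lies on the opposite strand and had 8252 counts against 6458.

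*Mboat1* and *Mboat2* encode acyltransferases of lysophosphatidylserine, lysophosphatidylethanolamine and LPC and were near the limit of detection. *Mboat1* (ENSMUSG00000038732, chr13:30136489-30246717) had 3, 7 and 4 counts in controls against 7, 23 and 21 in cKO mice. *Mboat2* (ENSMUSG00000020646, chr12:24830879-24964397) had 2, 3 and 4 counts against 3, 10 and 6. A floor of 3 counts corresponded to between 0.0762 and 0.118 CPM, for counting error only. Both genes failed the filter on low counts, and a difference in *Mboat2* was not detectable at this depth. In the 5 alternative fits that kept *Mboat1* its log2 fold change was between 1.16 and 1.75, past the threshold only without cKO replicate 1 (adjusted p = 0.0372), the cKO liver with the fewest counts.

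**Figure D2:**
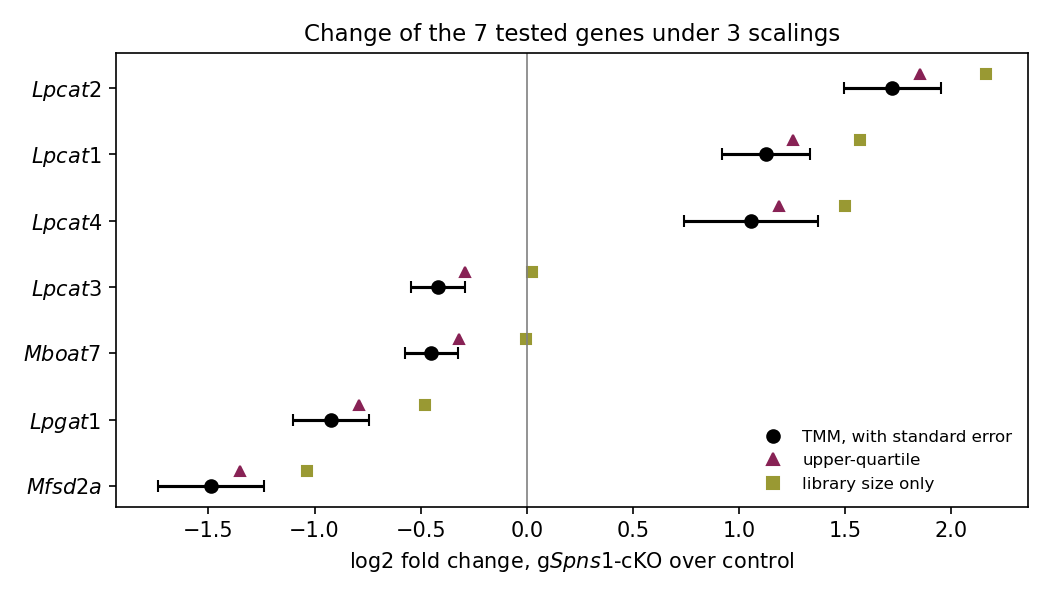
Log2 fold change of the 7 tested genes in cKO over control livers; circles and bars are the TMM-scaled estimate and its standard error, triangles upper-quartile scaling and squares scaling by library size only. *Lpcat1*, *Lpcat2* and *Lpcat4* lie to the right of 0 and *Lpgat1* and *Mfsd2a* to the left under each of the 3 scalings, whereas under library size only *Lpcat3* is at 0.02 and *Mboat7* at -0.0043.

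Per length, the order of the levels in control livers ran from *Mfsd2a* (82.8 ± 20.6 CPM per kilobase) through *Lpcat3* (40.2 ± 3.25), *Lpgat1* (31.7 ± 7.94) and *Mboat7* (4.64 ± 0.458) to *Lpcat1* (0.680 ± 0.154), *Lpcat2* (0.462 ± 0.0739), *Lpcat4* (0.245 ± 0.0298), *Mboat1* (0.0448 ± 0.0165) and *Mboat2* (0.0114 ± 0.00466). *Lpcat3* and *Lpgat1* overlapped between livers and so did *Lpcat1* and *Lpcat2*, while the other neighbours did not. In the cKO livers *Lpcat3* (30.1 ± 4.04 CPM per kilobase) and *Mfsd2a* (29.5 ± 8.92) overlapped at the top, so that *Mfsd2a* was no longer set apart from the acyltransferases. *Lpcat2* (1.53 ± 0.209) and *Lpcat1* (1.48 ± 0.0776) overlapped in the middle. The rest of the order was the same. Even after its rise *Lpcat2* stood far below *Lpcat3*.

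Comparisons within a library do not depend on the scaling between libraries. The summed length-normalized level of *Lpcat1*, *Lpcat2* and *Lpcat4* relative to *Lpcat3* had log2 values of -4.91, -5.04 and -4.62 in controls against -3.16, -2.91 and -3.20 in cKO mice. The mean difference was 1.77 on the log2 scale, or 3.41-fold, with no overlap (exact permutation over mice, two-sided, p = 0.1, which is the smallest that 3 mice against 3 allow, 0.183 adjusted over 11 within-library quantities and summed levels). The ratio was higher by 4.45-fold for *Lpcat2*, 2.97-fold for *Lpcat1* and 2.79-fold for *Lpcat4*, each without overlap at the same exact p. *Mboat7* relative to *Lpcat3* differed by -0.03 (exact p = 0.9). *Lpgat1* relative to *Lpcat3* differed by -0.47 on the log2 scale with overlapping groups (exact p = 0.2).

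*Mfsd2a* relative to *Lpcat3* had log2 values of 0.61, 0.91 and 1.53 in controls against -0.33, 0.64 and -0.49 in cKO mice. The difference of -1.08 did not separate the groups, because cKO replicate 2 reached above control replicate 1 (exact p = 0.2). *Mfsd2a* relative to *Lpgat1* differed by -0.61 and overlapped as well (exact p = 0.2), so a deeper fall of *Mfsd2a* than of *Lpgat1* did not stand out from the spread between mice.

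Among the 8 acyltransferases, the share of *Lpcat3* in their summed length-normalized level was 51.9 ± 7.17% in controls against 55.7 ± 4.39% in cKO mice, with overlap (exact p = 0.5). *Lpgat1* held 40.3 ± 7.36% and 31.2 ± 4.15%, also with overlap (exact p = 0.2). *Mboat7* held 5.98 ± 0.699% and 6.30 ± 0.499%. The groups stood apart for the minor enzymes other than *Mboat2*, whose share overlapped (exact p = 0.2). The share of *Lpcat2* ran from 0.531% to 0.623% in controls and from 2.66% to 3.09% in cKO mice. That of *Lpcat1* ran from 0.606% to 1.14% and from 2.49% to 2.90%. Those of *Lpcat4* and *Mboat1* did not overlap either (exact p = 0.1 for each of the 4 genes, 0.2 adjusted over the 8 shares). The share of *Mboat1* rests on 3 to 23 counts per liver, and its CPM overlapped between the groups. *Lpcat3* and *Lpgat1* thus stayed the bulk of the acyltransferase RNA in every liver.

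**Figure D3:**
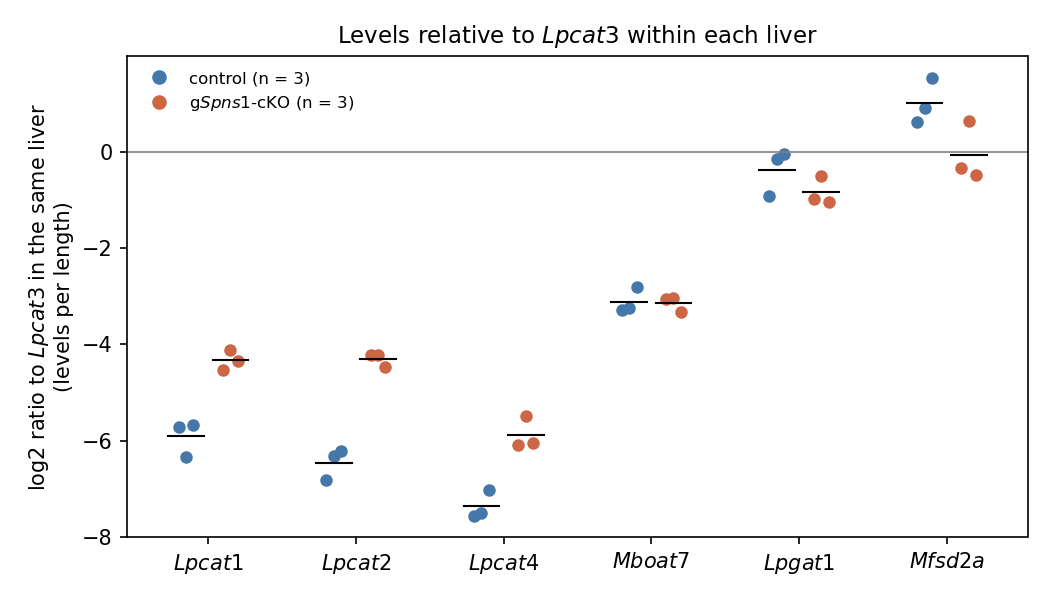
Log2 ratio of each gene to *Lpcat3* within the same liver, from levels per length; points are mice and bars the means of 3. *Lpcat1*, *Lpcat2* and *Lpcat4* stand apart between the groups, *Mboat7* does not, and *Lpgat1* and *Mfsd2a* overlap.

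In whole liver, a change in the number of cells of a type and a change in RNA per cell cannot be told apart. Markers of macrophages were higher together with *Lpcat2*. Of the 14 macrophage markers, 14 passed as higher and none was at 0 in a group, and their sums ran from 258 to 414 CPM in controls and from 1045 to 1466 CPM in cKO mice, 3.50-fold higher on average and 4.76-fold under scaling by library size only. Set against that sum, *Lpcat2* was 4.95, 4.89 and 4.01 CPM per 1000 CPM of macrophage markers in controls against 4.07, 4.43 and 4.49 in cKO mice. The groups overlapped (exact p = 0.5), so relative to the summed macrophage markers no rise of *Lpcat2* was measured. Without *Gpnmb*, *Trem2* and *Itgax*, the markers of lipid-laden macrophages, the means were 4.66 ± 0.540 and 4.70 ± 0.328 (exact p = 1). The ratios to macrophage markers, and those to hepatocyte markers below, were all chosen after the data were seen. Single markers rose by 1.14 (*Clec4f*) to 6.84 (*Gpnmb*) on the log2 scale, against 1.72 for *Lpcat2*. The ratio can therefore depend on the markers summed.

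*Lpcat1* per 1000 CPM of macrophage markers was 9.74 ± 4.25 in controls against 5.87 ± 1.20 in cKO mice and overlapped (exact p = 0.2), and *Lpcat4* was 2.07 ± 0.359 and 1.23 ± 0.296, lower without overlap (exact p = 0.1, 0.4 adjusted over 8 marker ratios). Neither gene was higher relative to the macrophage markers. Other cell types moved too. Of 8 cholangiocyte markers 6 passed as higher, with sums of 59.4 to 77.7 CPM in controls and 186 to 300 CPM in cKO mice. Of 10 stellate cell and fibroblast markers 8 passed as higher (236 to 265 CPM against 588 to 632 CPM), and of 10 endothelial markers 5 (230 to 254 CPM against 306 to 358 CPM). Neutrophil markers summed to at most 16.0 CPM. Of these 10 markers 4 were tested and all 4 passed as higher. The other 6 had too few counts to be tested and did not move together. Summed counts in controls and cKO mice were 25 and 17 for *Elane*, 8 and 8 for *Mpo*, 7 and 6 for *Camp* and 2 and 0 for *Ly6g*. They were 14 and 22 for *Ltf* and 1 and 30 for *Mmp8*. Lymphocyte markers summed to at most 7.76 CPM, with 2 higher and 1 lower of 10. Under scaling by library size only, 7289 of all 15449 genes tested passed as higher. So did 7 cholangiocyte, 10 stellate cell and fibroblast, 10 endothelial, 4 neutrophil and 4 lymphocyte markers. The endothelial sum was then 1.84-fold higher on average against 1.36-fold under TMM. The part of these cells in the rise of *Lpcat1* and *Lpcat4* was not tested.

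Most hepatocyte markers moved with the genes that fell. Of the 10 markers 7 passed as lower and 0 as higher. *Ttr* (log2 fold change -0.47) and *Hnf4a* (-0.42) did not pass. Nor did *Cps1* (0.36), which was higher in every cKO liver than in any control liver. The sums of the 10 markers ran from 108518 to 122902 CPM in controls and from 64402 to 76463 CPM in cKO mice. Under scaling by library size only 2 were lower and 1 higher, and the sums were 93213 to 106352 CPM against 74538 to 90017 CPM. Per 1000 CPM of these markers, *Mfsd2a* was at 1.19, 1.61 and 2.13 CPM in controls against 0.908, 1.17 and 0.704 in cKO mice, still lower without overlap (exact p = 0.1, 0.4 adjusted over 8 marker ratios). *Lpgat1* was at 2.14 ± 0.647 and 1.79 ± 0.176 and overlapped (exact p = 0.4). *Lpcat3* (1.15 ± 0.0915 and 1.39 ± 0.288) and *Mboat7* (0.340 ± 0.0450 and 0.403 ± 0.0897) overlapped as well, with exact p = 0.3 and 0.4. Of the 4 genes that fell, *Mfsd2a* was the only one whose groups stood apart on this scale. The scale depends mainly on *Alb*, which alone averaged 69311.6 CPM in controls and 41846.5 CPM in cKO mice. Ratios to the hepatocyte markers without *Alb* were not tested. The part of the hepatocyte content in the falls of *Mfsd2a*, *Lpgat1*, *Lpcat3* and *Mboat7* was not tested.

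**Figure D4:**
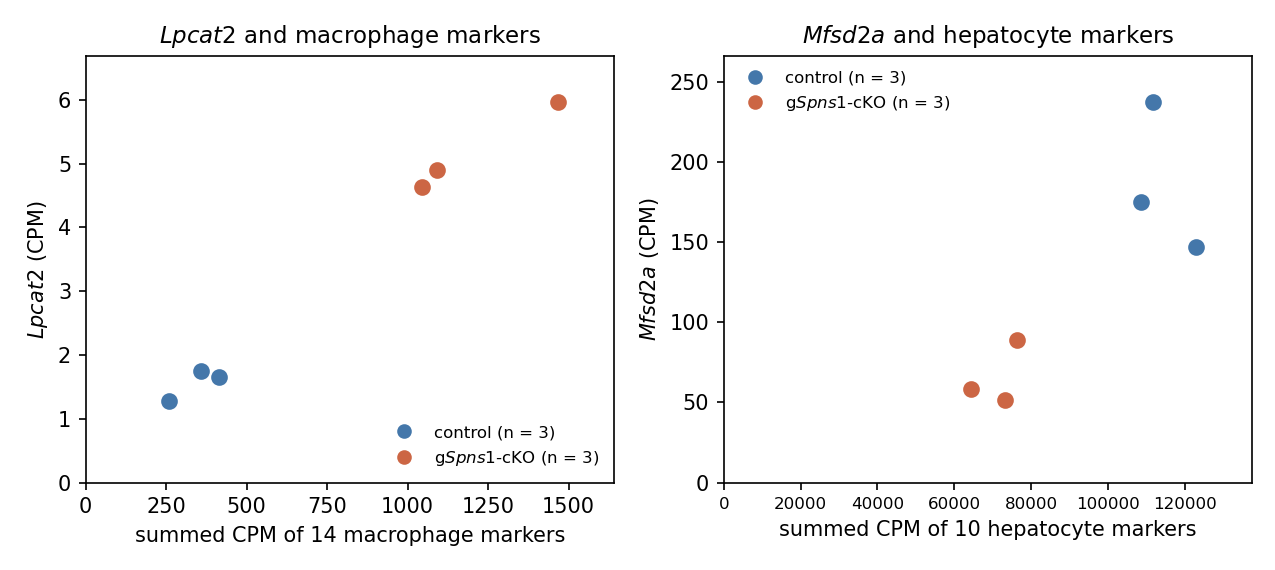
Left, *Lpcat2* (CPM) against the summed CPM of 14 macrophage markers; right, *Mfsd2a* (CPM) against the summed CPM of 10 hepatocyte markers; each point is 1 liver, and both axes start at 0. *Lpcat2* keeps to between 4.01 and 4.95 CPM per 1000 CPM of macrophage markers in all 6 livers, whereas *Mfsd2a* per hepatocyte marker level is lower in every cKO liver than in any control liver.

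The neighbouring steps of lysophospholipid metabolism were counted from lists of genes with known roles, beside a median log2 fold change of 0.014 over all genes tested. Phospholipases and lipases that release lysophospholipids had 13 of 26 genes tested, with 2 higher and 7 lower and a median of -0.48, and 4 and 4 with -0.041 under scaling by library size only. The 2 that rose were *Pla2g4a*, the cytosolic phospholipase that frees arachidonate (log2 fold change 2.17, standard error 0.28, adjusted p = 0.000239), and *Pla2g7*, the plasma platelet-activating factor acetylhydrolase made by macrophages (2.24, standard error 0.23, adjusted p = 6.85e-05). *Lipc* and *Lipg*, the hepatic and endothelial lipases, fell by 1.43 and 2.43 on the log2 scale (adjusted p = 0.000324 and 0.00844). Among 10 glycerol-3-phosphate and lysophosphatidic acid acyltransferase genes, all tested, 2 rose and 4 fell (median 0.14), against 4 and 2 (median 0.59) under scaling by library size only, with *Gpat4* at -1.43 and *Agpat2* at -1.05 the lowest and *Agpat4* at 0.92 and *Agpat5* at 0.42 the highest of those past the threshold.

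The next list held genes for acyl-CoA synthetases and for proteins with an acyl-CoA binding domain. Of its 10 genes 9 were tested, 2 higher and 5 lower, with a median of -0.66. Under scaling by library size only the calls were 2 and 4, with a median of -0.21. *Dbi*, which encodes the acyl-CoA binding protein, went from 1353 ± 140 to 578 ± 195 CPM (log2 fold change -1.23, adjusted p = 0.00206). *Acsl1*, the main hepatic acyl-CoA synthetase gene, went from 968 ± 110 to 445 ± 49.5 CPM (-1.12, adjusted p = 0.000355). *Acsl4*, whose product prefers arachidonate, rose by 0.37 (adjusted p = 0.0359) and *Acbd3* by 0.57 (adjusted p = 0.00168). Of 9 genes for lysolipid transporters and receptors other than *Mfsd2a*, 6 were tested and *Spns1* was the only one past the threshold, a call lost under scaling by library size only or by upper-quartile factors, as given above.

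Lists for the nuclear receptors known to act on *Mfsd2a* and *Lpcat3* were counted in the same way. Of 19 genes for PPARα and its targets, all tested, 14 fell, 1 rose and 4 did not pass, with a median of -1.11. Under scaling by library size only 11 fell and 1 rose, with a median of -0.66. The 4 that did not pass under TMM scaling were *Ehhadh* (log2 fold change -0.0028), *Cyp4a10* (-0.098), *Cyp4a14* (0.27) and *Acot3* (-0.43). *Acot1*, whose reads can be shared with close paralogs, went from 45.1 ± 10.7 to 2.81 ± 1.26 CPM (log2 fold change -4.01, adjusted p = 0.000506) and *Cidec*, a lipid droplet gene, from 27.5 ± 15.1 to 2.71 ± 0.241 CPM (-3.34, adjusted p = 0.00406). *Pdk4* rose by 1.11 (adjusted p = 0.00411). *Mfsd2a*, at -1.49, lay below the median of this list, and most of the hepatocyte markers were lower in the same livers. The part of PPARα in the fall of *Mfsd2a* was not tested.

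Of 14 genes for LXR and its targets, all tested, 5 rose, 2 fell and 7 did not pass, with a median of 0.34, and 8 rose and 1 fell, with a median of 0.78, under scaling by library size only. *Lpl*, the lipoprotein lipase gene that macrophages also express, went from 13.3 ± 0.624 to 295 ± 67.4 CPM (log2 fold change 4.46, standard error 0.18, adjusted p = 2.84e-07). *Abcg1*, a sterol exporter gene, rose by 1.63 (adjusted p = 2.74e-05). *Pltp*, the phospholipid transfer protein gene, went from 111 ± 45.5 to 27.7 ± 9.76 CPM (adjusted p = 0.0111). *Nr1h3*, the gene of LXRα, fell by 0.61 (standard error 0.11, adjusted p = 0.00186). *Lpcat3*, at -0.42 under TMM scaling and 0.02 by library size only, lay below the median of this list under both.

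**Figure D5:**
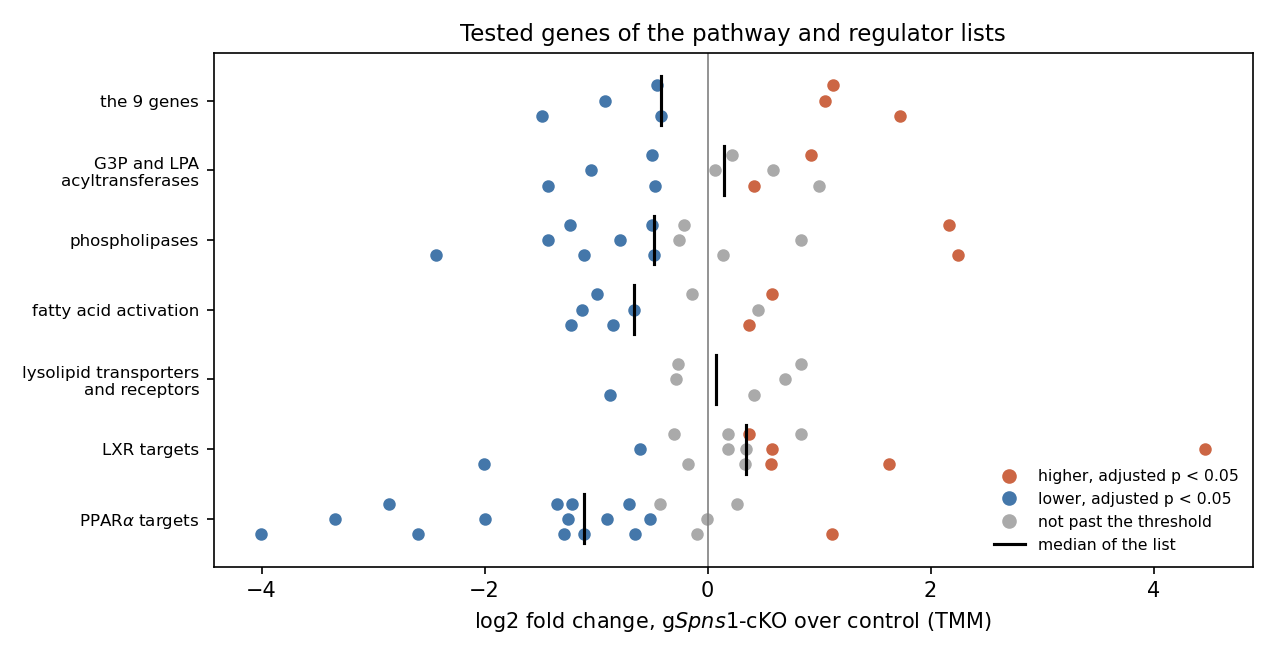
Log2 fold change (TMM-scaled) of every tested gene in the 9 described genes and in the 6 pathway and regulator lists; each point is a gene, coloured by its call at an adjusted p of 0.05, and black bars are medians. Most PPARα targets lie to the left of 0, with a median of -1.11, and the LXR targets are spread on both sides.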

How the data were processed

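Liver RNA of 6 mice was sequenced by a commercial service, 1 library per mouse. The authors deposited whole-number counts per gene, not normalized, together with FPKM values, gene lengths and their own comparison of the groups (group means, fold changes and p-values), which was not used. Per the labels, reads were trimmed with fastp, mapped to mm10 with HISAT2 2.0.5 and counted with featureCounts 1.5.0-p3. Coordinates are the table's and match GENCODE M21 (GRCm38) for the 9 genes.

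The counts were analysed in R 4.3.3. Genes were filtered by filterByExpr of edgeR 4.0.16 (15449 kept), libraries were scaled by TMM and groups were compared by the robust quasi-likelihood test with Benjamini-Hochberg adjustment over all genes and a threshold of 0.05. Standard errors are the log2 fold change over the square root of F. CPM uses all counts and the TMM factors. Within-library shares and ratios were compared by two-sided exact permutation tests over the 20 splits of 6 mice. DESeq2 1.42.0, limma-voom (limma 3.58.1), other scalings and filters, a replicate block and leaving out each mouse were alternatives. The scripts were tested on simulated data. No 2 libraries of a group matched within sampling noise. The genes described and the lists were chosen with earlier results of these data known. Named in the text were the 9 genes, *Spns1* and, from each pathway or regulator list, up to 2 genes higher and 2 lower with the largest change past the threshold and a mean of at least 1 CPM, and marker genes at 0 counts in a whole group. Outside this rule, the PPARα list genes and hepatocyte markers that did not pass, *Alb*, single macrophage markers and the untested neutrophil markers were also named. Depth limits genes under about 10 counts per library. Floors cover counting error only, whereas the standard errors of the edgeR fit also include variation between mice.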

Additional observations from a re-analysis of the deposited data

How the results depend on the processing

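*Lpcat1*, *Lpcat2*, *Lpgat1* and *Mfsd2a* passed in each of 14 alternatives. Omitting single mice left 2 to 4 of the 9 genes higher and 2 to 4 lower, and at an adjusted p under 0.01 both counts were 2. Under scaling by library size only, 2 genes were lower, because *Mboat7* (-0.0043) missed the threshold and *Lpcat3* changed sign to 0.024. *Spns1* had a log2 fold change of -0.43 (adjusted p = 0.213) with library size only and -0.74 (adjusted p = 0.0635) with upper-quartile factors, and -1.18 to -0.68 when single mice were omitted. Over all genes, library size only gave 7289 higher and 970 lower against 3286 and 3166, and upper-quartile factors 4111 and 2240. Leaving out a mouse kept the 1.77 of the log2 ratio to *Lpcat3* between 1.68 and 1.89 and moved the 3.85 percentage point difference in the share of *Lpcat3* between 1.14 and 7.91.

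Same-numbered control and cKO mice did not deviate together (correlations of 0.042, 0.032 and -0.027 across genes). With 3 mice per group this cannot exclude a pairing by replicate number. With a replicate block, 3 of the 9 genes were higher and 4 lower, and 3084 genes were higher and 3016 lower. *Spns1* had a log2 fold change of -0.90 in that edgeR fit. Its standard error was 0.11 against 0.25 without the block, and its adjusted p 0.000679 against 0.0300. The differences paired by number gave the same means of 1.77 and 3.85 (exact sign-flip p = 0.25 and 0.75). The block changed no call among the 9 genes.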
